A study of Mus musculus with 10 samples.

Results

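The genes described here encode the proteasome and the proteins that assemble, activate or inhibit it. They were chosen by symbol: every protein-coding gene of the deposited table whose symbol starts with Psm, then a letter from a to g and a digit. This gave 50 of 19414 genes, of which 14821 are protein-coding. By known role, 8 encode the alpha ring of the 20S core, 7 its constitutive beta ring, 3 the immunoproteasome subunits, 6 the ATPase ring of the 19S regulatory particle, 11 its other subunits, 7 assembly factors, and 6 activators or an inhibitor. The other 2, Psmc3ip and Psme3ip1, match the symbol pattern but are named for binding a proteasome protein and are not subunits.

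Liver RNA was taken from 10 female mice of HET3, an outbred-like stock in which each animal carries its own mixture of founder strain alleles. The 5 mice on the Longevity diet are LD_405, LD_406, LD_442, LD_513 and LD_515, and the 5 on the standard diet are SD_403, SD_500, SD_501, SD_502 and SD_646. All were labelled as 25 months old and had their diet for 5 months. The series' title describes the Longevity diet as supplemented with methionine, and the labels give no further composition. The comparison asks how the liver's messenger RNA differs between the diets, with each mouse as 1 sample.

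The proteasome is the protease that degrades proteins tagged with ubiquitin. Its 20S core is a barrel of alpha rings, which form the gate, around beta rings, whose subunits Psmb5, Psmb6 and Psmb7 carry the proteolytic sites. The 19S particle caps the barrel, recognises ubiquitin, removes it, and unfolds the substrate with its ATPases. Interferon-gamma induces Psmb8, Psmb9 and Psmb10, which replace Psmb5, Psmb6 and Psmb7 in newly built cores, and immune cells express them constitutively. The resulting immunoproteasome alters the peptides loaded on MHC class I. Subunit genes are raised together by the transcription factor NRF1 (gene Nfe2l1) when proteasome activity is limiting, through antioxidant response elements in their promoters.

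The promoters of 4 catalytic subunits are shown, because the comparison of constitutive and immune cores turns on the catalytic genes. Those of Psmb7 and Psmb10 are not shown, and neither gene is among the members listed below with a motif match. The sequences are the 250 bases before the RefSeq gene start on GRCm38.p6, written 5′ to 3′ on the gene's strand. Capitals mark a match to the antioxidant response element core TGACNNNGC in Psmb5 and Psmb6, and to the gamma-activated site TTCNNNGAA in Psmb8. In Psmb9 none of the 3 motifs searched was found.
Psmb5, chr14:54617996-54618245, minus strand: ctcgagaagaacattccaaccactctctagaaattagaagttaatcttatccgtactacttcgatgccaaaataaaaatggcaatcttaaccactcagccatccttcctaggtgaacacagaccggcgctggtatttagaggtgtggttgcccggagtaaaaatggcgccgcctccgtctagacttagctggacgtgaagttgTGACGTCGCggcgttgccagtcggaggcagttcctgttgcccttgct
Psmb6, chr11:70525107-70525356, plus strand: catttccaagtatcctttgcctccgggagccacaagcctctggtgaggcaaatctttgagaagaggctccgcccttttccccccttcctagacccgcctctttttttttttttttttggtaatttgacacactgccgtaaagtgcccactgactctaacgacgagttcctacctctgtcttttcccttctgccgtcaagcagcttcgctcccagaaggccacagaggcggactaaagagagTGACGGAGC
Psmb8, chr17:34197945-34198194, plus strand: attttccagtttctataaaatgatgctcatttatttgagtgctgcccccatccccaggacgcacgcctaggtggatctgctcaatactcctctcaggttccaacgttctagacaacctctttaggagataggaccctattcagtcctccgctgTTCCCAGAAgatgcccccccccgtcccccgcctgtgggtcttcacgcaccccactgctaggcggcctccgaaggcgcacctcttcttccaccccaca
Psmb9, chr17:34187331-34187580, minus strand: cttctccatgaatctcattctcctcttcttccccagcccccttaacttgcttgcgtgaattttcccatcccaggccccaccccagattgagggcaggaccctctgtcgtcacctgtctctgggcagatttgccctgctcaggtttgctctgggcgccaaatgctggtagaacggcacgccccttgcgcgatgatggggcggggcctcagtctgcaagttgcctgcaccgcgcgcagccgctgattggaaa
The capitals start 47 bases before the gene start in Psmb5, 9 bases before it in Psmb6 and 97 bases before it in Psmb8.

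RefSeq promoters were found for 42 of the 50 genes, in 46 windows. Motifs were searched on both strands of the 250 bases before the start, and the patterns do not exclude each other. The antioxidant response element core was found in 5 members (Psmb5, Psmb6, Psmc6, Psmd12 and Psmd9), against 10.2% of all 32851 windows of that length. An interferon-stimulated response element pattern, 2 copies of GAAA with 2 bases between them, was found in Psmb3, Psmd4 and Psmd9, against 2.98% of all windows. The gamma-activated site was found in Psmb8 and Psmg1, against 7.02% of all windows. A match describes the letters and is not evidence of binding.

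Values are CPM, counts scaled to 1e+06 reads on the listed genes. Tests were made on log2(CPM + 0.1) over 13157 genes that averaged 1 CPM or more. Estimated depth was 30.0 ± 6.47 M reads (1e+06 reads) on the Longevity diet and 42.5 ± 4.35 M on the standard diet (SD, n = 5 each). At the lowest depth 3 reads correspond to 0.121 CPM. The 11 hepatocyte markers tested summed to 155048 to 210473 CPM on the Longevity diet and 108783 to 159403 CPM on the standard diet. Most of this sum is the albumin gene Alb, at 124794 ± 20701 CPM on the Longevity diet and 79126 ± 19773 CPM on the standard diet, while 7 of the 11 markers had a difference below 0. The labels give no sequencing batch, so none could be compared. In all mice the marker lists for leukocytes, Kupffer cells, lymphocytes, sinusoidal endothelium and hepatocytes had 0 markers listed at 0 throughout.

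The libraries LD_405 and SD_502 stand apart, and the proteasome genes follow them. LD_405 had the highest value of all 10 mice for 25 of the 49 proteasome genes tested, and SD_502 the lowest for 26. Both libraries deviate with transcript length over all genes. For the 2628 tested genes under 1500 nt the median log2 deviation from the gene's mean was 0.43 in LD_405 and -0.36 in SD_502. For the 7381 genes of 2500 nt or more it was -0.62 in LD_405 and 0.36 in SD_502. Proteasome transcripts are short: 51.0% of those tested are under 1500 nt, against 20.0% of all genes tested, with medians of 1440 and 2810 nt. The 25 short proteasome genes had medians of 0.56 in LD_405 and -0.59 in SD_502. The 11 of 2500 nt or more had -0.13 in LD_405 and 0.08 in SD_502. Between these classes, from 1500 nt to below 2500 nt, 13 proteasome genes had 0.24 in LD_405 and -0.29 in SD_502. All 2992 tested genes of that class had -0.03 in LD_405 and 0.03 in SD_502. Within a class the proteasome genes were not matched to the other genes for length. The part of length in the proteasome deviations of these libraries was not tested. Results whose direction rests on these 2 libraries were also computed without them.

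**Figure D1:**
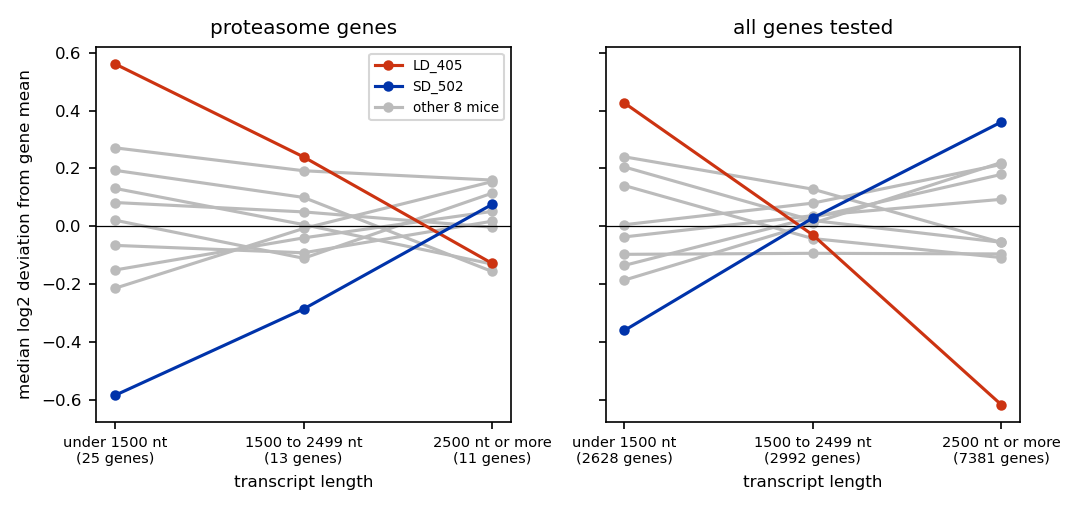
Median log2 deviation from the gene's mean over the 10 mice, by transcript length, for the proteasome genes (left) and all genes tested (right), with 1 line per mouse. LD_405 is high and SD_502 low among short genes in both panels, and the 2 longer classes of proteasome genes hold only 13 and 11 genes.

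No proteasome gene was called higher or lower on the Longevity diet. Of 49 members tested, 0 rose and 0 fell by limma with the Benjamini-Hochberg adjustment over all genes at 0.05, where 0.661% of all genes tested rose and 1.23% fell (87 and 162 genes, 1.89% together; 151 and 138 genes with median-of-ratios scaling, 151 and 148 after quantile normalization). The count was also 0 in all 20 alternative settings of limma. At an unadjusted p under 0.05 there were 2 members, Psmc4 and Psmd8, or 4.08% of those tested, against a background of 17.5% of all genes. For 0 members did the values of the diets separate without overlap, against 5.5% of all genes. The lowest adjusted p among members was 0.238.

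The intervals bound how large a difference the data allow. For 46 of the 49 members, or 93.9%, the 95% confidence interval of the log2 difference lay between -1 and 1, so that a 2-fold difference in either direction lay outside it. This held for 55.8% of all genes tested. The 3 exceptions were Psma8, Psmb5 and Psmb9. Log2 differences of Longevity diet minus standard diet ran from -0.57 for Psma8 to 0.43 for Psmc4.

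The differences leaned above the centre of all genes, and that lean moved with the 2 libraries named. The median log2 difference was 0.14 over the members and -0.11 over all genes tested, a gap of 0.25, and 35 of 49 members (71.4%) lay above 0 where 39.6% of all genes did. Median-of-ratios scaling shifted the all-gene median by 0.10 and left the gap at 0.25, and quantile normalization shifted it by 0.11 and gave a gap of 0.12. Without LD_405 and SD_502 the member median was 0.0039, the gap 0.022, and 26 of 49 members lay above 0. LD_405 was the highest mouse for 25 members and SD_502 the lowest for 26, so leaving both out lowers those members' differences by construction. This omission, here and for the classes below, is therefore no independent check of the lean. Without LD_405 alone the gap was 0.13, and without SD_502 alone 0.14. With length and GC slopes removed the member median was 0.09, the gap 0.20, and 29 of 49 members lay above 0.

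**Figure D2:**
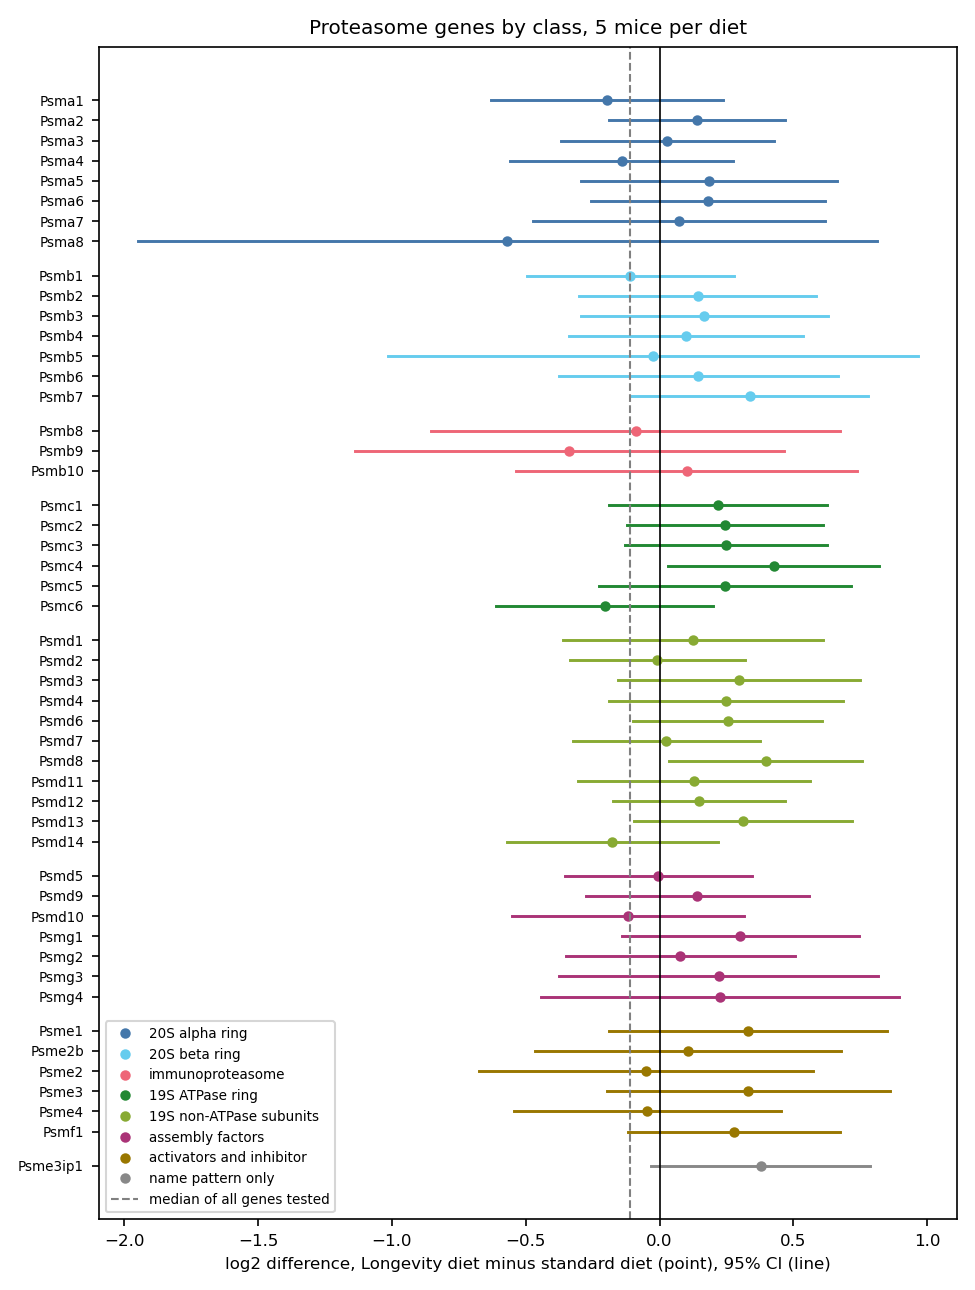
Log2 difference, Longevity diet minus standard diet, for the 49 proteasome genes tested, by class, with the 95% confidence interval from limma (n = 5 mice per diet). The intervals of Psmc4 and Psmd8 lie just above 0, and those of all other genes include it.

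Among the 7 constitutive alpha ring genes, whose products form the gate, and the testis form Psma8, 0 of 8 rose or fell. The class median was 0.05 and turned to -0.11 without LD_405 and SD_502, to -0.06 without SD_502 alone, to -0.01 without LD_406 and to -0.01 with weights per library. Psma1 was at 38.2, 65.3, 58.9, 55.8 and 57.3 CPM in LD_405, LD_406, LD_442, LD_513 and LD_515, against 66.4, 60.7, 80.5, 44.8 and 63.9 CPM in SD_403, SD_500, SD_501, SD_502 and SD_646. LD_405 and SD_502 were the low mice of their diets and the ranges overlapped (log2 difference -0.20, SE 0.20, limma adjusted p = 0.649). Psma2 was the steadiest core gene, at 51.2, 58.6, 59.9, 54.9 and 51.4 CPM on the Longevity diet and 53.8, 56.6, 49.1, 43.0 and 48.4 CPM on the standard diet, in the same order of mice. Its values overlapped between the diets (log2 difference 0.14, SE 0.15, adjusted p = 0.666).

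Psma8, which replaces Psma7 in the proteasome of testis, was close to the filter of 1 CPM, at 0.384, 0.849, 0.275, 1.505 and 0.808 CPM on the Longevity diet and 1.03, 3.70, 0.250, 0.726 and 1.35 CPM on the standard diet. SD_500 alone exceeded 2 CPM, and the diets overlapped. The other alpha ring genes, Psma3 to Psma7, had log2 differences of -0.14 to 0.18 and adjusted p of at least 0.676. Psma5 averaged 22.01 ± 3.69 CPM on the Longevity diet and 19.8 ± 5.79 CPM on the standard diet. The processed pseudogene Psma5-ps was listed at nearly the same level, 22.1 ± 2.28 CPM on the Longevity diet and 23.7 ± 6.64 CPM on the standard diet, so how reads were divided between these copies is uncertain.

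In the beta ring 0 of 7 constitutive genes rose or fell, with a class median of 0.14. It turned to -0.10 without LD_405 and SD_502, to -0.01 without SD_502 alone and to -0.03 with length and GC slopes removed. Among the structural subunits, Psmb3 was at 126, 112, 78.0, 83.2 and 80.5 CPM on the Longevity diet and 93.4, 87.7, 92.0, 54.1 and 102 CPM on the standard diet. SD_502 lay far under its group, the other mice overlapped (log2 difference 0.17, SE 0.21, adjusted p = 0.718), and the sign turned in 2 of 20 alternatives. Psmb1, Psmb2 and Psmb4, also structural, had log2 differences of -0.11, 0.14 and 0.10, with adjusted p between 0.753 and 0.828.

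Of the 3 constitutive catalytic genes, Psmb6 and Psmb7 varied less between mice than Psmb5. Psmb6 (ENSMUSG00000018286.7, chromosome 11 from 70416193 to 70418684 on mm39, plus strand), which cuts after acidic residues, was at 197, 172, 118, 100.5 and 117 CPM on the Longevity diet and 127, 116, 161, 78.7 and 152 CPM on the standard diet. LD_405 was highest and SD_502 lowest, with the other mice overlapping (log2 difference 0.14, SE 0.24, adjusted p = 0.788). The sign turned in 3 of 20 alternatives, to -0.02 without SD_502, -0.09 with length and GC slopes removed and -0.15 without LD_405 and SD_502. Psmb7 (ENSMUSG00000026750.7, chromosome 2 from 38478048 to 38534099, minus strand), the subunit with trypsin-like activity, was at 120, 107, 72.1, 81.5 and 84.8 CPM on the Longevity diet and 91.4, 72.1, 68.7, 51.5 and 85.9 CPM on the standard diet. LD_405 and LD_406 lay above all standard diet mice and the other 3 within their range (log2 difference 0.34, SE 0.20, adjusted p = 0.416).

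Psmb5 (ENSMUSG00000022193.8, chromosome 14 from 54851576 to 54855479, minus strand), the chymotrypsin-like subunit and the main target of proteasome inhibitor drugs, varied most of the core genes after the testis form Psma8. It was at 18.8, 72.0, 14.5, 41.0 and 20.0 CPM in LD_405, LD_406, LD_442, LD_513 and LD_515, against 43.4, 36.9, 40.7, 10.8 and 24.9 CPM in SD_403, SD_500, SD_501, SD_502 and SD_646. The highest value was 6.68 times the lowest, both diets held low and high mice, and LD_405, the highest mouse for 25 of the 49 members, was among the low ones. The mean was 33.3 ± 24.0 CPM on the Longevity diet and 31.3 ± 13.5 CPM on the standard diet (log2 difference -0.02, SE 0.46, 95% CI -1.01 to 0.97, adjusted p = 0.985). The sign of this difference turned in 8 of 20 alternatives.

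The immunoproteasome genes showed no diet call, and the mice of the Longevity diet spread more widely than those of the standard diet. Psmb8 (ENSMUSG00000024338.16, chromosome 17 from 34416695 to 34420428, plus strand), the inducible counterpart of Psmb5, was at 99.9, 37.5, 67.0, 47.7 and 21.2 CPM in LD_405, LD_406, LD_442, LD_513 and LD_515, against 58.1, 51.9, 65.0, 31.2 and 56.3 CPM on the standard diet. LD_405 and LD_442 lay above and LD_515 below every standard diet mouse (log2 difference -0.09, SE 0.35, adjusted p = 0.919). The difference was 0.20 without LD_515, -0.35 without LD_405 and -0.53 without LD_405 and SD_502. Psmb9 (ENSMUSG00000096727.4, chromosome 17 from 34400961 to 34406738, minus strand), the counterpart of Psmb6, was at 37.6, 13.8, 36.7, 18.8 and 8.54 CPM on the Longevity diet and 32.1, 27.1, 30.7, 17.4 and 21.4 CPM on the standard diet. LD_405 and LD_442 were above, LD_406 and LD_515 below, all standard diet mice (log2 difference -0.34, SE 0.37, 95% CI -1.14 to 0.47, adjusted p = 0.672). The difference was -0.03 without LD_515, -0.57 without LD_405 and -0.70 without LD_405 and SD_502. Its annotated span overlaps the start of the peptide transporter gene Tap1, on the opposite strand (34406527 to 34416199), and library strandedness is not stated, so reads in the overlap cannot be told apart.

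Psmb10 (ENSMUSG00000031897.10, chromosome 8 from 106662367 to 106665076, minus strand), the counterpart of Psmb7, was at 118, 51.6, 64.7, 46.6 and 30.0 CPM on the Longevity diet and 57.5, 54.4, 61.4, 41.8 and 48.6 CPM on the standard diet. LD_405 was again highest and LD_515 lowest (log2 difference 0.10, SE 0.30, adjusted p = 0.888), and without LD_405 the difference was -0.17. Highest over lowest within a diet was 4.72, 4.40 and 3.93 for Psmb8, Psmb9 and Psmb10 on the Longevity diet, against 2.08, 1.84 and 1.47 on the standard diet. This difference in spread was not tested.

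**Figure D3:**
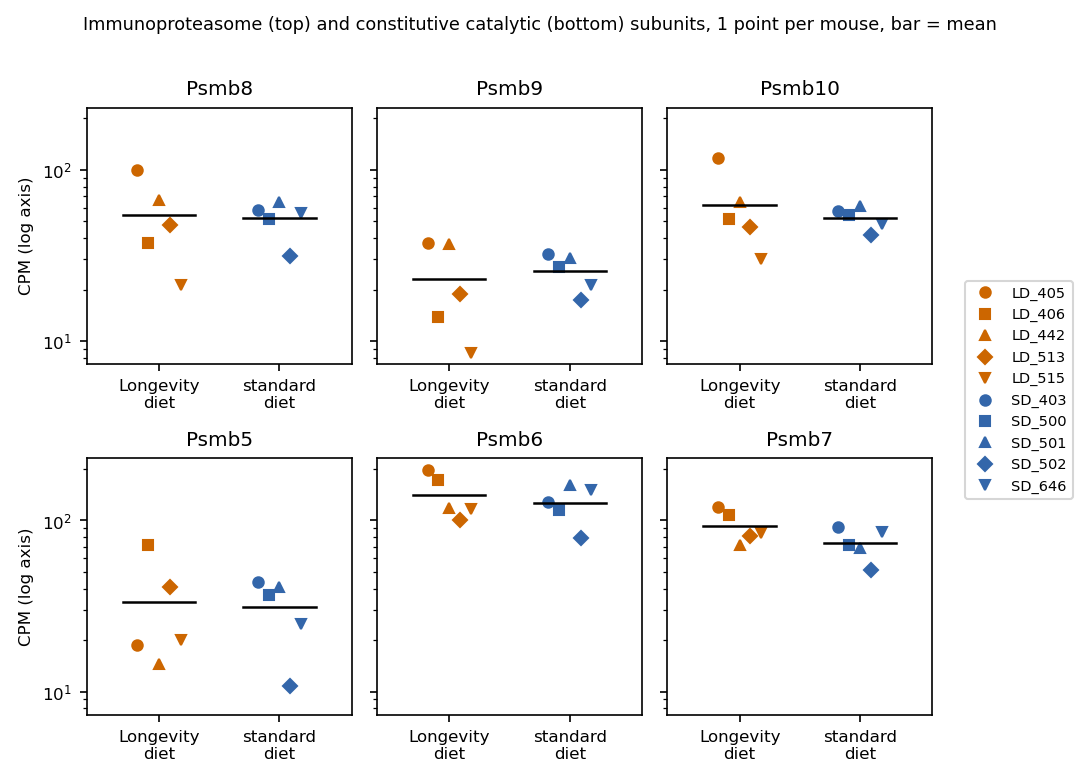
CPM of the 3 immunoproteasome genes (top) and their constitutive counterparts (bottom) on log axes, 1 point per mouse with a bar at the mean, Longevity diet left and standard diet right. All 3 immune genes are highest in LD_405 (37.6 to 118 CPM) and lowest in LD_515 (8.54 to 30.0 CPM), whereas Psmb5 is highest in LD_406 and lowest in SD_502.

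Ratios within a library set each immune subunit against the one it replaces and do not depend on library scaling. A deviation with transcript length can still enter them, as Psmb8 is 1628 nt long and Psmb5 899 nt. The Psmb8 ratio also carries the spread of Psmb5, whose highest value was 6.68 times its lowest, against 4.72 times for Psmb8. Psmb8 over Psmb5 was 5.29, 0.521, 4.59, 1.16 and 1.06 in LD_405, LD_406, LD_442, LD_513 and LD_515, against 1.34, 1.41, 1.598, 2.88 and 2.25 in SD_403, SD_500, SD_501, SD_502 and SD_646. The Longevity diet held both the 2 highest and the 3 lowest ratios (mean log2 difference -0.07, SE 0.68, exact permutation p = 0.944, adjusted over the 3 ratios 0.944), and the sign turned in 5 of 13 alternatives. Psmb9 over Psmb6 was 0.191, 0.0809, 0.312, 0.188 and 0.0741 on the Longevity diet and 0.253, 0.235, 0.191, 0.223 and 0.141 on the standard diet. LD_406 and LD_515 were lowest and LD_442 highest (mean log2 difference -0.48, SE 0.43, exact permutation p = 0.317, adjusted 0.726).

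Psmb10 over Psmb7 was 0.982, 0.482, 0.898, 0.572 and 0.355 on the Longevity diet and 0.630, 0.754, 0.894, 0.812 and 0.566 on the standard diet. LD_405 and LD_442 were the highest of the 10 mice, just above SD_501, and LD_406 and LD_515 the lowest (mean log2 difference -0.24, SE 0.30, exact permutation p = 0.484, adjusted 0.726). These tests were two-sided over all ways to assign 5 of the 10 mice to a diet, with a smallest possible p of 0.00794. The SD of the log2 ratio was 1.45, 0.891 and 0.616 on the Longevity diet for the Psmb8, Psmb9 and Psmb10 ratios, against 0.476, 0.332 and 0.269 on the standard diet.

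Immune cell markers varied in part with the same mice. The mean log2 deviation of the 3 immunoproteasome genes was 0.96, -0.38, 0.47, -0.17 and -1.15 in LD_405, LD_406, LD_442, LD_513 and LD_515, and lay between -0.46 and 0.34 on the standard diet. The 14 lymphocyte markers deviated by 0.94, -1.44, 0.50, 0.08 and -2.24 in the same Longevity diet mice, and by -0.40 to 1.28 on the standard diet. Both sets of values are lowest in LD_515 and highest, among Longevity diet mice, in LD_405. Other lists ordered these mice differently. The leukocyte markers deviated by 0.23, -1.22, 0.39, 0.10 and -1.45 and the Kupffer cell markers by 0.41, -1.01, 0.68, -0.40 and -0.82 in the same Longevity diet mice, both highest in LD_442. On the standard diet the leukocyte markers deviated by -0.23 to 0.79 and the Kupffer cell markers by -0.30 to 0.76. The interferon-gamma response genes deviated by -0.75, -0.60, 0.69, 0.71 and -0.93 in the same Longevity diet mice, and by -0.32 to 0.52 on the standard diet. Like the immunoproteasome genes they were lowest in LD_515, low in LD_406 and high in LD_442. They were low in LD_405, where the immunoproteasome genes were high. Summed lymphocyte markers ran from 4.36 to 50.6 CPM on the Longevity diet and from 26.4 to 65.0 CPM on the standard diet, and the 15 general leukocyte markers from 84.0 to 238 CPM on the Longevity diet and from 168 to 308 CPM on the standard diet. The 11 Kupffer cell markers ran from 245 to 807 CPM on the Longevity diet and from 415 to 734 CPM on the standard diet. In these lists 0 markers rose or fell, 4 lymphocyte, 3 leukocyte and 0 Kupffer cell markers had an unadjusted p under 0.05, and the median log2 differences were -0.68, -0.73 and -0.45. A difference above 0 was found for 0 of 14 lymphocyte, 0 of 15 leukocyte and 1 of 11 Kupffer cell markers. Of all genes tested, 17.5% had an unadjusted p under 0.05 and 39.6% a difference above 0. The 12 sinusoidal endothelial markers summed to 142 to 339 CPM on the Longevity diet and 340 to 473 CPM on the standard diet (median log2 difference -0.72, 0 called). Of these 12 markers 8 had an unadjusted p under 0.05 and 0 had a difference above 0. Of the 11 hepatocyte markers 5 had an unadjusted p under 0.05, and 4 had a difference above 0 and 7 below 0. Log2 differences were 0.68 for Alb, -0.98 for Ass1 and -0.55 for Fgb. In this list 0 rose and 1 fell, where 0.661% of all genes tested rose and 1.23% fell. The 1 that fell was the urea cycle enzyme gene Cps1 (log2 difference -0.98, adjusted p = 0.0376), and the median over the list was -0.01. That call was lost in 8 of 20 alternatives, with the leading digit of the mouse number as a covariate and without LD_442, LD_515 or any 1 of the standard diet mice, and over the 20 adjusted p was 0.0257 to 0.178 and the log2 difference -1.10 to -0.79. In bulk tissue fewer cells of a type and less RNA per cell cannot be told apart, and the part of immune cells in the immunoproteasome values was not tested.

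Genes that work beside the immunoproteasome gave no diet call either. Of 15 genes of MHC class I antigen processing 0 rose or fell, with a median of -0.0011 and 0 members at an unadjusted p under 0.05. The class I heavy chain gene H2-K1 averaged 777 ± 443 CPM on the Longevity diet and 572 ± 168 CPM on the standard diet (adjusted p = 0.626). Tap1, which shares the start region of Psmb9, was at 20.1, 19.4, 49.3, 31.7 and 8.62 CPM on the Longevity diet and 38.7, 26.3, 19.9, 24.2 and 13.5 CPM on the standard diet. LD_442 was highest and LD_515 lowest, while LD_405, the highest for all 3 immunoproteasome genes, was in the middle of its diet. The Tap1 transcript is 2953 nt long and that of Psmb9 1352 nt, and LD_405 deviates with transcript length. The part of length in this contrast was not tested. Of 24 genes of the interferon-gamma response 0 rose or fell and 3 had an unadjusted p under 0.05, where 17.5% of all genes tested did. Their median was -0.32, and the kinase gene Jak2 averaged 9.01 ± 2.58 CPM on the Longevity diet and 13.3 ± 1.41 CPM on the standard diet (log2 difference -0.61, adjusted p = 0.207).

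In the 19S ATPase ring, which unfolds substrates, 0 of 6 genes rose or fell, and the class had the highest median, 0.24, positive in all 20 alternatives (0.07 to 0.35). Psmc4 (ENSMUSG00000030603.17, chromosome 7 from 27741132 to 27749526, minus strand) was at 96.5, 82.8, 66.5, 71.6 and 71.8 CPM on the Longevity diet and 70.8, 59.0, 51.7, 43.7 and 65.96 CPM on the standard diet. Only LD_442 lay below the highest standard diet mouse, and the difference was 0.43 on the log2 scale (SE 0.18, 95% CI 0.03 to 0.82, adjusted p = 0.247). Psmc2 was at 72.4, 73.6, 51.7, 67.8 and 71.1 CPM on the Longevity diet and 47.8, 57.4, 61.6, 50.3 and 66.7 CPM on the standard diet. LD_442 lay among the standard diet values and the other 4 mice lay above them (log2 difference 0.25, SE 0.17, adjusted p = 0.479). Psmc1, Psmc3 and Psmc5 had log2 differences of 0.22, 0.25 and 0.24, and Psmc6 was the exception in sign at -0.21 (adjusted p = 0.485 to 0.603 over these 4 genes).

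Of the 11 other 19S subunits, which recognise ubiquitin, hold the base together or form the lid, 0 rose or fell and 9 had a positive difference, with a class median of 0.15 (0.13 to 0.25 over the alternatives). Psmd8 (ENSMUSG00000030591.18, chromosome 7 from 28873613 to 28880126, minus strand), a lid subunit, was at 134, 120, 89.6, 97.9 and 106 CPM on the Longevity diet and 87.9, 87.2, 92.9, 72.0 and 73.6 CPM on the standard diet. LD_442 lay below SD_501, and the other 4 Longevity diet mice lay above all standard diet mice (log2 difference 0.40, SE 0.17, 95% CI 0.04 to 0.76, adjusted p = 0.238). Psmd13, also of the lid, was at 63.6, 63.3, 42.7, 44.3 and 41.8 CPM on the Longevity diet and 46.4, 37.4, 46.5, 33.9 and 39.6 CPM on the standard diet. LD_405 and LD_406 were high and the other 3 overlapped the standard diet (log2 difference 0.31, SE 0.19, adjusted p = 0.415).

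The scaffold subunit Psmd2 and the lid deubiquitinase Psmd14 were the 2 with a negative difference. Psmd2 averaged 106 ± 9.71 CPM on the Longevity diet and 106 ± 11.7 CPM on the standard diet (log2 difference -0.01, 95% CI -0.34 to 0.32). Psmd14, which removes ubiquitin from substrates, averaged 24.4 ± 2.92 CPM on the Longevity diet and 27.8 ± 5.15 CPM on the standard diet (log2 difference -0.18, adjusted p = 0.653). The ubiquitin receptor gene Psmd4 averaged 101 ± 23.9 CPM on the Longevity diet and 84.7 ± 16.4 CPM on the standard diet (log2 difference 0.25, adjusted p = 0.554). Among the others, Psmd3 had a log2 difference of 0.30 and Psmd6 of 0.25.

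Among 7 assembly factors 0 rose or fell. Their class median was 0.14, and -0.04 without LD_405 and SD_502. Psmg1, a chaperone that pairs with Psmg2 to start the alpha ring, was at 17.8, 22.1, 16.1, 12.8 and 14.97 CPM on the Longevity diet and 11.8, 13.2, 13.3, 11.2 and 18.1 CPM on the standard diet. LD_406 was highest and the diets overlapped (log2 difference 0.30, SE 0.21, adjusted p = 0.469). Psmg3, which pairs with Psmg4, was at 28.9, 18.3, 13.6, 9.87 and 13.6 CPM on the Longevity diet and 13.3, 11.6, 15.1, 10.3 and 18.5 CPM on the standard diet. LD_405 stood alone above the other 9 mice (log2 difference 0.22, SE 0.28, adjusted p = 0.711), and the sign turned in 2 of 20 alternatives. The chaperones of the 19S base, Psmd5, Psmd9 and Psmd10, had log2 differences of -0.0045, 0.14 and -0.12.

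The activators and the inhibitor, which dock on the core in place of the 19S particle or bind it, gave 0 of 6 genes risen or fallen and a median of 0.19. Psme1, a component of the interferon-induced PA28 cap, was at 168, 87.7, 113, 83.3 and 71.0 CPM on the Longevity diet and 93.0, 76.0, 90.3, 55.4 and 88.8 CPM on the standard diet. LD_405 and LD_442, the mice highest in Psmb9, were also the highest here, and the other mice overlapped (log2 difference 0.33, SE 0.24, adjusted p = 0.505). The difference was 0.14 without LD_405, 0.20 without SD_502 and 0.01 without both. Psmf1, the inhibitor gene, was at 33.2, 34.2, 27.5, 31.3 and 29.2 CPM on the Longevity diet and 20.6, 31.1, 22.6, 33.2 and 22.5 CPM on the standard diet. SD_500 and SD_502 lay within the Longevity diet range and the other 3 below it (log2 difference 0.28, SE 0.18, adjusted p = 0.456).

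Psme2, which completes the PA28 cap, averaged 25.5 ± 9.76 CPM on the Longevity diet and 25.9 ± 7.41 CPM on the standard diet. Its close copy Psme2b was listed higher, at 77.8 ± 27.7 CPM on the Longevity diet and 71.4 ± 19.7 CPM on the standard diet, and reads can be shared between the copies, so the split between them is uncertain. The nuclear activator gene Psme3 had a log2 difference of 0.33 (adjusted p = 0.509). Once LD_405 and SD_502 were left out it had the lowest adjusted p of the members, 0.0615, and over the other alternatives the lowest adjusted p of any member was 0.150 to 0.457. The large activator gene Psme4 averaged 47.7 ± 13.5 CPM on the Longevity diet and 48.1 ± 9.48 CPM on the standard diet.

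Of the 2 genes that only match the symbol pattern, Psme3ip1 averaged 18.1 ± 3.41 CPM on the Longevity diet and 13.8 ± 1.57 CPM on the standard diet (log2 difference 0.38, adjusted p = 0.321). Psmc3ip was the 1 member not tested, at 0.362 ± 0.150 CPM on the Longevity diet and 0.199 ± 0.211 CPM on the standard diet, and had no reads in SD_500 and SD_646, where 3 reads correspond to 0.0657 and 0.0665 CPM.

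**Figure D4:**
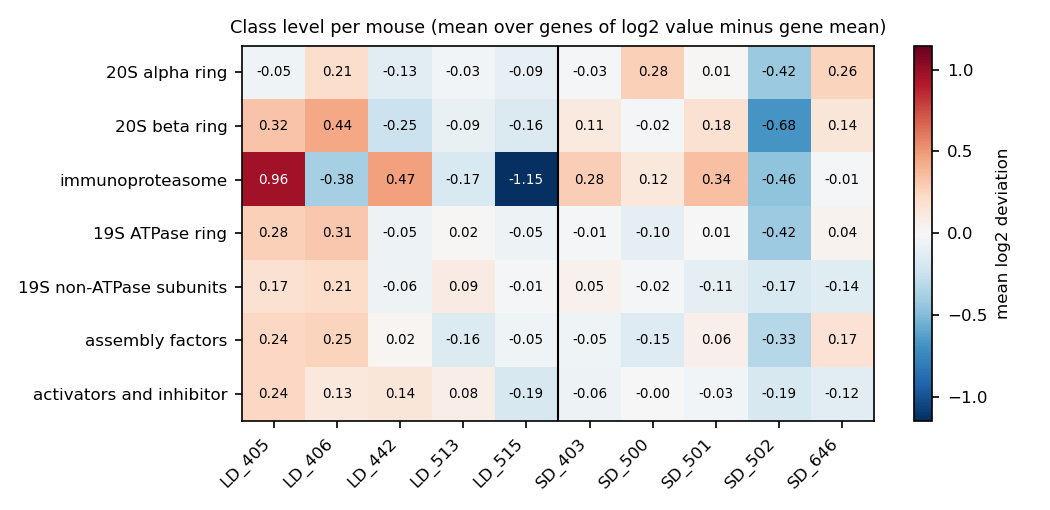
Mean log2 deviation of each proteasome class in each mouse, taken over the class's genes after subtracting each gene's mean, with the Longevity diet left of the line. The immunoproteasome has the widest range, 0.96 in LD_405 to -1.15 in LD_515, and SD_502 is the lowest mouse in every class but the immunoproteasome.

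Most proteasome genes varied less between mice of the same diet than genes in general. Psmb5, Psma8 and the immunoproteasome genes were among the 9 that varied more. The median within-diet SD of log2(CPM + 0.1) was 0.3003 over the 49 members and 0.449 over all genes tested. Of the members, 30 lay below percentile 25 of all genes, 40 below the median and 9 above it. The lid gene Psmd12 had the lowest SD, 0.109, at percentile 0.167, with 54.6, 48.0, 50.5, 47.3 and 45.8 CPM on the Longevity diet and 41.0, 43.4, 45.8, 41.9 and 50.4 CPM on the standard diet. LD_405, LD_442 and SD_646 were its high mice, and the diets overlapped. At the other end were Psma8 (percentile 94.7), Psmb5 (91.1), Psmb9 (81.7), Psmb8 (78.8), Psmg4 (65.7), Psmb10 (64.0) and Psme2 (60.6). All 3 immunoproteasome genes and 0 of the 17 genes of the 19S particle lay above the all-gene median. SD depends on level and length, and the members were not matched to other genes for either.

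**Figure D5:**
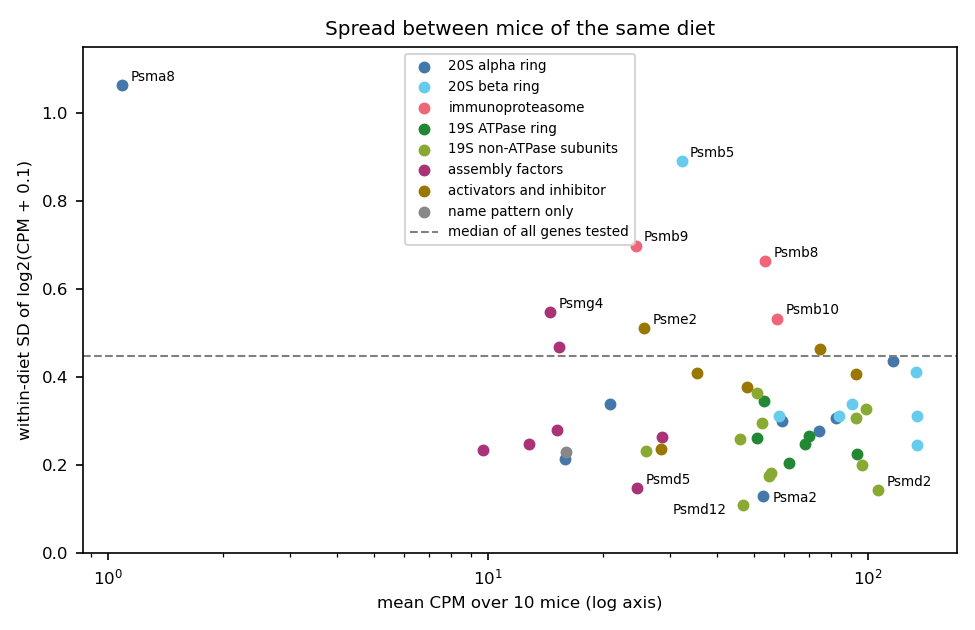
Within-diet SD of log2(CPM + 0.1) against mean CPM over the 10 mice (log axis) for the 49 proteasome genes tested, coloured by class, with the all-gene median of 0.449 as a dashed line. Psma8, Psmb5, the 3 immunoproteasome genes, Psmg3, Psmg4, Psme2 and Psme2b lie above the line, while every 19S gene lies below it.

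Levels between genes were compared as CPM per kb of transcript, averaged over the 10 mice. The constitutive beta ring ran from 35.9 for Psmb5 to 168 for Psmb6 CPM per kb, and the immunoproteasome from 18.1 for Psmb9 to 43.8 for Psmb10. The 19S ATPases lay between 22.8 and 57.2, the other 19S subunits between 16.4 and 69.7, and the assembly factors, which are needed only while particles are built, between 5.60 and 26.2. The alpha ring ran from 0.643 for the testis gene Psma8, then 5.60 for Psma3, to 127 for Psma7. Lengths are those of 1 annotated transcript per gene, so a gene whose liver transcript is shorter, or whose reads are shared with a pseudogene, is understated.

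Partners of the proteasome outside the symbol pattern showed the same lack of calls. Of 20 partner genes, which include the assembly factor Pomp and ubiquitin receptors, 0 rose or fell and the median log2 difference was -0.02. Adrm1, the receptor that anchors a deubiquitinase to the 19S base, had a difference of 0.36 (adjusted p = 0.368), and Pomp, which matures the core, -0.26 (adjusted p = 0.591).

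Of 13 genes of the NRF1 pathway 1 rose and 0 fell, where 0.661% of all genes tested rose and 1.23% fell. The median over the list was 0.06, and 1 gene had an unadjusted p under 0.05, against 17.5% of all genes tested. Nfe2l1 itself averaged 111 ± 27.9 CPM on the Longevity diet and 111 ± 42.6 CPM on the standard diet (log2 difference 0.05, adjusted p = 0.940). Its activating protease gene Ddi2 averaged 142 ± 51.6 CPM on the Longevity diet and 214 ± 89.3 CPM on the standard diet (adjusted p = 0.338). The riser was Maff, a small Maf partner of several transcription factors, at 16.4, 18.0, 25.7, 35.5 and 21.8 CPM on the Longevity diet and 4.44, 12.6, 13.3, 4.99 and 8.99 CPM on the standard diet. All Longevity diet mice lay above all standard diet mice, and 5.5% of all genes tested separated without overlap in either direction. The log2 difference of Maff was 1.48 (95% CI 0.76 to 2.20, adjusted p = 0.0400). The call was lost in 9 of 20 alternatives, with length and GC slopes removed and without each of LD_406, LD_442, LD_513, LD_515, SD_403, SD_500, SD_502 and SD_646, with adjusted p of 0.0160 to 0.103 and log2 differences of 1.27 to 1.77 over the 20.

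Upstream in the ubiquitin pathway, 0 of 17 ubiquitin genes and activating or conjugating enzymes rose or fell (median 0.0033). An unadjusted p under 0.05 was found for 2 of them, against 17.5% of all genes tested. The polyubiquitin gene Ubb averaged 795 ± 117 CPM on the Longevity diet and 609 ± 116 CPM on the standard diet (log2 difference 0.39, adjusted p = 0.275). Of 19 liver ubiquitin ligases and deubiquitinases 1 rose and 0 fell (median 0.01), where 0.661% of all genes tested rose and 1.23% fell. An unadjusted p under 0.05 was found for 4 of the 19, and the differences were above 0 for 11 and below 0 for 8. Usp2, a deubiquitinase whose liver mRNA is under circadian control, rose to 50.2, 66.6, 8.48, 55.5 and 18.5 CPM on the Longevity diet, against 2.17, 2.21, 3.78, 5.56 and 8.11 CPM on the standard diet. LD_442 was only just above SD_646, and the other 4 lay well above all standard diet mice. Values of the diets separated without overlap, in either direction, for 5.5% of all genes tested. The log2 difference of Usp2 was 2.99 (95% CI 1.81 to 4.16, adjusted p = 0.0163). Its call was lost in 3 of 20 alternatives, with adjusted p of 0.0522 without LD_406, 0.0527 without SD_403 and 0.0664 without LD_405 and SD_502 (adjusted p of 0.0045 to 0.0664 and log2 differences of 2.72 to 3.45 over the 20). Time of collection is not given in the labels. The F-box ligase gene Fbxo31 averaged 94.5 ± 38.6 CPM on the Longevity diet and 43.1 ± 7.75 CPM on the standard diet (adjusted p = 0.0620). The chaperone-linked ligase gene Stub1 averaged 83.2 ± 12.5 CPM on the Longevity diet and 60.7 ± 9.35 CPM on the standard diet (adjusted p = 0.192).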

How the data were processed

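Liver RNA of 10 mice was sequenced after poly-A selection. The deposited table holds CPM, to which the authors added 0.0001; this was subtracted. Per the submitters' processing notes, STAR, Partek and mm39 were used, with no versions. Quantifier, annotation and strand setting are not given in the sources used here. Titles name separate mice. Depth was estimated from the step that 1 read makes in each column, 24.7 to 45.7 M reads. Of the values below 100 reads, 84.5% to 88.0% per library fell within 0.1 of whole reads. A count test would need 95%, so none was run. Floors cover counting error only.

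The 13157 genes averaging 1 CPM or more were compared as log2(CPM + 0.1) in R 4.3.3 by limma 3.58.1, with statmod 1.5.0, using eBayes with its trend and robust options. Diet was the sole factor, tests were two-sided, and p was adjusted by Benjamini-Hochberg over all these genes at 0.05. "Rose" and "fell" mean past that threshold. Every adjusted p of a single gene is from limma, and fold and log2 differences are Longevity diet over or minus standard diet. The 3 catalytic ratios were compared by exact permutation (scipy 1.17.1). Coordinates of genes are the table's on mm39, the end being 1 below the printed stop, an offset seen in 15 of 15 mitochondrial genes. GENCODE M21 (GRCm38) gave transcript length and GC content for 97.1% of genes, and RefSeq on GRCm38.p6 the promoters.

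Values per mouse are given for Psmb5 to Psmb10 and for the 2 genes with the smallest p of each class. Of the pathway list genes chosen by p, up to 4 a list, Maff and Usp2 have values per mouse. The others chosen so have a mean or a difference, or are not named. Psma8, Psmd12, Tap1, Nfe2l1, Psma5-ps and the further genes with means were named after their values were seen. The members, classes, pathway lists and markers were chosen with earlier results of these data known. Alternatives were other pseudocounts, filters and scalings, library weights, a covariate made of the mouse number's leading digit, and omission of each mouse in turn. Removing length and GC slopes, and leaving out LD_405 and SD_502 together, were chosen after seeing the data. The values of 1 gene among the proteasome partners are not reported here.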

Additional observations from a re-analysis of the deposited data

Results flagged for a closer look

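In 5 of the 104 sets of 5 mice examined, 1 mouse lay apart from the other 4 of its diet by more than 0.710 of the set's range on the log2 scale, and chance gives such a gap in about 1 set in 20. SD_502 was low for the structural beta ring genes Psmb1 (97.03 CPM) and Psmb3 (54.1 CPM). LD_442 was low for the ATPase gene Psmc2 (51.7 CPM). LD_405 was low for the assembly factor gene Psmd5 (20.3 CPM). SD_646 was low for Psme3ip1 (11.1 CPM), which matches the symbol pattern only.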

How the results depend on the processing

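The count of proteasome genes risen or fallen was 0 in all 20 alternatives, and the direction of the ATPase, other 19S and activator medians was kept in all of them. Over all genes, 87 rose and 162 fell. Against these, median-of-ratios scaling and quantile normalization each gave 151 risen, weights per library 329 and 476, the leading digit of the mouse number 28 and 70, removal of length and GC slopes 163 and 302, and leaving out LD_405 and SD_502 together 338 and 309 (risen, then fallen where 2 are given). Leaving out 1 mouse gave 26 to 152 risen and 57 to 228 fallen. Calls in the pathway and marker lists moved by a few genes. Leaving out LD_405 and SD_502 gave 1 partner gene risen, 1 hepatocyte marker risen and 2 fallen, 1 lymphocyte and 2 endothelial markers fallen. Weights per library gave 3 ligases or deubiquitinases and 1 hepatocyte marker risen, and 1 leukocyte, 2 lymphocyte, 4 endothelial and 2 hepatocyte markers fallen. Removal of slopes gave 0 NRF1 pathway genes and 2 ligases or deubiquitinases risen, with 1 lymphocyte and 2 hepatocyte markers fallen. Quantile normalization gave 2 ligases or deubiquitinases risen, the leading digit 0 hepatocyte markers fallen, and each of a pseudocount of 1 CPM, no filter, a mean of at least 5 CPM and quantile normalization 1 endothelial marker fallen. Leaving out 1 mouse gave 0 to 1 NRF1 pathway genes, 0 to 2 ligases or deubiquitinases and 0 to 1 hepatocyte markers risen, with 0 to 1 leukocyte, Kupffer cell, lymphocyte and hepatocyte markers and 0 to 3 endothelial markers fallen. The cause of these moves was not tested. No paired analysis was possible because no mouse number occurs on both diets. Depth was lower on the Longevity diet, and the 49 genes tested lie above the floor of 3 reads in every mouse.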

Other observations

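The mice low in Psmb5 were also those in which a gene near it was listed at 0. Cebpe, which encodes a transcription factor of granulocytes and lies 92.3 kb from Psmb5 on chromosome 14 (54947817 to 54949631 on mm39), was listed at 0 in LD_405, LD_442, LD_515, SD_502 and SD_646, and at 4.16, 2.72, 3.33, 1.62 and 2.14 CPM in LD_406, LD_513, SD_403, SD_500 and SD_501. Psmb5 was at 10.8 to 24.9 CPM in the mice at 0 and at 36.9 to 72.0 CPM in the other 5, and both diets fall on either side. Cebpe was singled out after its values were seen, as the gene most like Psmb5 across the mice among the 55 tested genes within 1.5 Mb and among all genes tested. HET3 mice differ in genotype, and genotypes were not analysed here.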
